A study of Mus musculus with 6 samples.

Results

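The GDNF family of trophic factors was examined in mouse cerebral cortex through its 9 genes. They encode the ligands neurturin (Nrtn), GDNF (Gdnf), artemin (Artn) and persephin (Pspn), the co-receptors Gfra1, Gfra2, Gfra3 and Gfra4, and the receptor tyrosine kinase Ret. The genes were taken by symbol from the array's annotation. All 9 had a probe set, a group of short probes that together report 1 transcript, and they had 16 probe sets among 45037. The family was chosen by a measured value, the difference of the Nrtn signal between the groups. That difference, and every other difference between the same groups for these 9 genes, is therefore given as a description, with a standard error and no p-value.

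Each ligand of the family is a small secreted dimer with a preferred partner among co-receptors that are tethered to the outer membrane by a lipid anchor. Neurturin prefers Gfra2, GDNF prefers Gfra1, artemin prefers Gfra3 and persephin prefers Gfra4. The complex of ligand and co-receptor brings Ret molecules together, and Ret then signals through adaptor proteins to the RAS-ERK and PI3K-AKT pathways. The family is best known for keeping dopaminergic, motor, sensory and autonomic neurons alive. Ret is scarce in much of the forebrain, where GDNF and Gfra1 can also act through the adhesion molecule Ncam1.

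Total RNA of cerebral cortex was measured on 6 Affymetrix mouse expression arrays. Arrays labelled as an Egr1 and Egr3 double knockout numbered 3, and wild type arrays numbered 3. Egr1 and Egr3 are zinc finger transcription factors that neurons induce with activity. The labels give no alleles, strain, sex, age, treatment, pooling or animal of origin. The errors therefore describe these arrays only. Each SD measures the spread between the arrays of a group. Each SE comes from a limma fit, which moves the spread of a probe set toward that of probe sets with similar signal. An SE can therefore be smaller or larger than these arrays alone would give.

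The targeted genes matched the label in part. The brighter Egr3 probe set read 339, 370 and 507 signal units in the arrays labelled double knockout, against 1189, 2670 and 924 in wild type (log2 difference -1.80, limma adjusted p = 0.0361). With wild type replicate 1 left out the Egr3 fall no longer passed (limma adjusted p = 0.0787), and likewise with any single array of the other group left out (0.0856 to 0.157). The Egr1 probe set read 2116, 2647 and 2657 in the arrays labelled double knockout, against 1247, 2054 and 1430 in wild type. It did not pass the test (log2 difference 0.67, limma adjusted p = 0.108) except without wild type replicate 2 (0.87, limma adjusted p = 0.0170). The positions of the probes relative to the deleted parts are not given in the sources used here, and the group is called by its label. Double knockout replicate 1 is titled in the same words as the wild type arrays, with no genotype, and only its description gives its group. Its Egr3 signal of 339 was the lowest of all 6 arrays on this probe set. Of 7 markers of cortical excitatory neurons, 6 had a probe set, and all 6 read above the array median in every array. Their summed signal was 5458, 6730 and 5778 in the arrays labelled double knockout, against 6011, 5740 and 4762 in wild type. Wild type replicate 3 was thus the lowest, as it was on Slc17a7, Tbr1, Emx1 and Cux2 but not on Neurod6 and Camk2a. Double knockout replicate 2 was the only array with Xist and without Eif2s3y signal, as RNA of a female gives. The summed signal of 6 choroid plexus genes was 4866, 152 and 166 in the arrays labelled double knockout, against 208, 486 and 11201 in wild type, so wild type replicate 3 and, through Ttr, double knockout replicate 1 stood apart. Wild type replicates 1 and 3 also stood apart on 5 measured striatal neuron markers, summed (1188 and 1332 against 627 to 770). Penk had the widest gap (724 and 703 against 178 to 285), with smaller ones in Rgs9 and Drd2. Ppp1r1b had none, and Drd1 was lowest in wild type replicate 1 (58.5 against 118 to 140). The same 2 arrays stood apart in the summed signal of 6 meningeal markers (1304 and 1903 against 721 to 884). The summed signal of 6 astrocyte markers was 5339 to 5897 in the arrays labelled double knockout, against 6293 to 6587 in wild type, but its members differed. Aqp4 fell and was the only astrocyte marker to pass (limma adjusted p = 0.0139), whereas Slc1a3 read 1220 to 1491, against 1014 to 1071 in wild type. The summed signals of 7 interneuron markers overlapped. Of these only Vip passed, at 1557 to 1843 against 1096 to 1262 in wild type (limma adjusted p = 0.0453). Summed signals also did not overlap for 6 microglia markers (2274 to 2756 against 2953 to 3413). The same held for the 5 measured oligodendrocyte markers (18283 to 20883 against 15252 to 17672). None of the markers in these sums passed singly. Among the oligodendrocyte markers Mog, Mobp and Mag overlapped between the groups, and Mobp was slightly lower (log2 difference -0.05). In tissue RNA, fewer cells of a type and less RNA per cell cannot be told apart, and the part of these markers in the results below was not tested.

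The start of Nrtn is shown because its signal set the family apart, and that of Pspn because this ligand gene lies within 1 Mb of Nrtn on the same chromosome. Each run gives the 250 bases before the RefSeq gene start, from 5′ to 3′ on the gene's own strand, in build GRCm38.p6. The Nrtn window lies at chr17:56757549-56757798 and the Pspn window at chr17:57000106-57000355, both on the minus strand. Capitals mark GTGGGCG, a short core of the sequence that Egr proteins bind, which reads CGCCCAC where it lies on the other strand.
Nrtn: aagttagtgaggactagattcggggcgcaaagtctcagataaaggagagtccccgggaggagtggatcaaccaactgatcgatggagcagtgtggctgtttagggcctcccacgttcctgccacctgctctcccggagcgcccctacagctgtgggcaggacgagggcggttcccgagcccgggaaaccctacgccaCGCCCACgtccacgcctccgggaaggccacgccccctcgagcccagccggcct
Pspn: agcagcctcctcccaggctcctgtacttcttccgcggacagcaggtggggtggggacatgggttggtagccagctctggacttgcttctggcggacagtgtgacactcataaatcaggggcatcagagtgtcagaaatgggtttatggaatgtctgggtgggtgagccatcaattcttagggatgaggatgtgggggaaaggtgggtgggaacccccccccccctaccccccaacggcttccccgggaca

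The Nrtn window held GTGGGCG once, starting 53 bases before the gene start, and the Pspn window held none. The table had 8 such windows for 6 of the 9 genes, and Nrtn's was the only one with this core, on either strand. Over all 32851 windows of this length, 7.02% held it. This core was chosen after the letters of the Nrtn window had been read. The longer form GCGNGGGCG stood in none of the 8 windows and in 4.70% of all windows, and its matches on both strands were counted. A match of letters is a description and does not show that a protein binds there.

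Among the ligands, neurturin read higher in the arrays labelled double knockout, while the other ligands were dim in every array. Nrtn read 116, 118 and 138 signal units in the arrays labelled double knockout, against 65.6, 44.8 and 32.1 in wild type. All 3 arrays of the first group lay above all 3 of the second, with a gap between 65.6 and 116. The means were 124 ± 12.02 and 47.5 ± 16.9 (SD, n = 3 each), a ratio of mean signals of 2.62. On the log2(signal + 16) scale used for all differences, Nrtn differed by 1.17 (SE 0.20). The pooled SD of its log2 signals within groups was 0.28, so the arrays alone would give a slightly larger error.

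The size of the Nrtn difference depended on the constant added before the logarithm, because its wild type signal was close to the array medians of 36.2 to 39.6. It was 1.42 with a constant of 1 and 0.76 with a constant of 64. Wild type replicate 3 had the lowest Nrtn signal, and without it the difference was 0.99. It was also the array with the most choroid plexus signal and the lowest summed signal of excitatory neuron markers. Double knockout replicate 2, with RNA of a female, had 118 units, between the other arrays of its group. Without double knockout replicate 1, whose title names no genotype, the difference was 1.21. Without wild type replicate 1 and double knockout replicate 2 together it was 1.40.

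GDNF is the founding ligand of the family. Gdnf read 0.898, 1.32 and 0.661 in the arrays labelled double knockout, against 1.22, 0.903 and 0.629 in wild type. These values overlapped and lay at the bottom of the scale, so the array gave no measure of a difference for Gdnf.

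Artemin, which acts on sensory and sympathetic neurons, was also dim. Artn read 2.33, 11.5 and 4.22 in the arrays labelled double knockout, against 16.7, 10.3 and 15.6 in wild type (log2 difference -0.47, SE 0.19). Double knockout replicate 2 lay above wild type replicate 2, so the groups overlapped. The difference was -1.31 with a constant of 1 and -0.16 with a constant of 64.

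Persephin supports midbrain dopaminergic and motor neurons in culture. Pspn read 15.9, 21.8 and 23.7 in the arrays labelled double knockout, against 17.5, 14.6 and 2.98 in wild type (log2 difference 0.43, SE 0.24). The groups overlapped, and the lowest value was again that of wild type replicate 3. Without that array the log2 difference was 0.18. The difference of this dim probe set was 1.02 with a constant of 1 and 0.16 with a constant of 64.

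**Figure D1:**
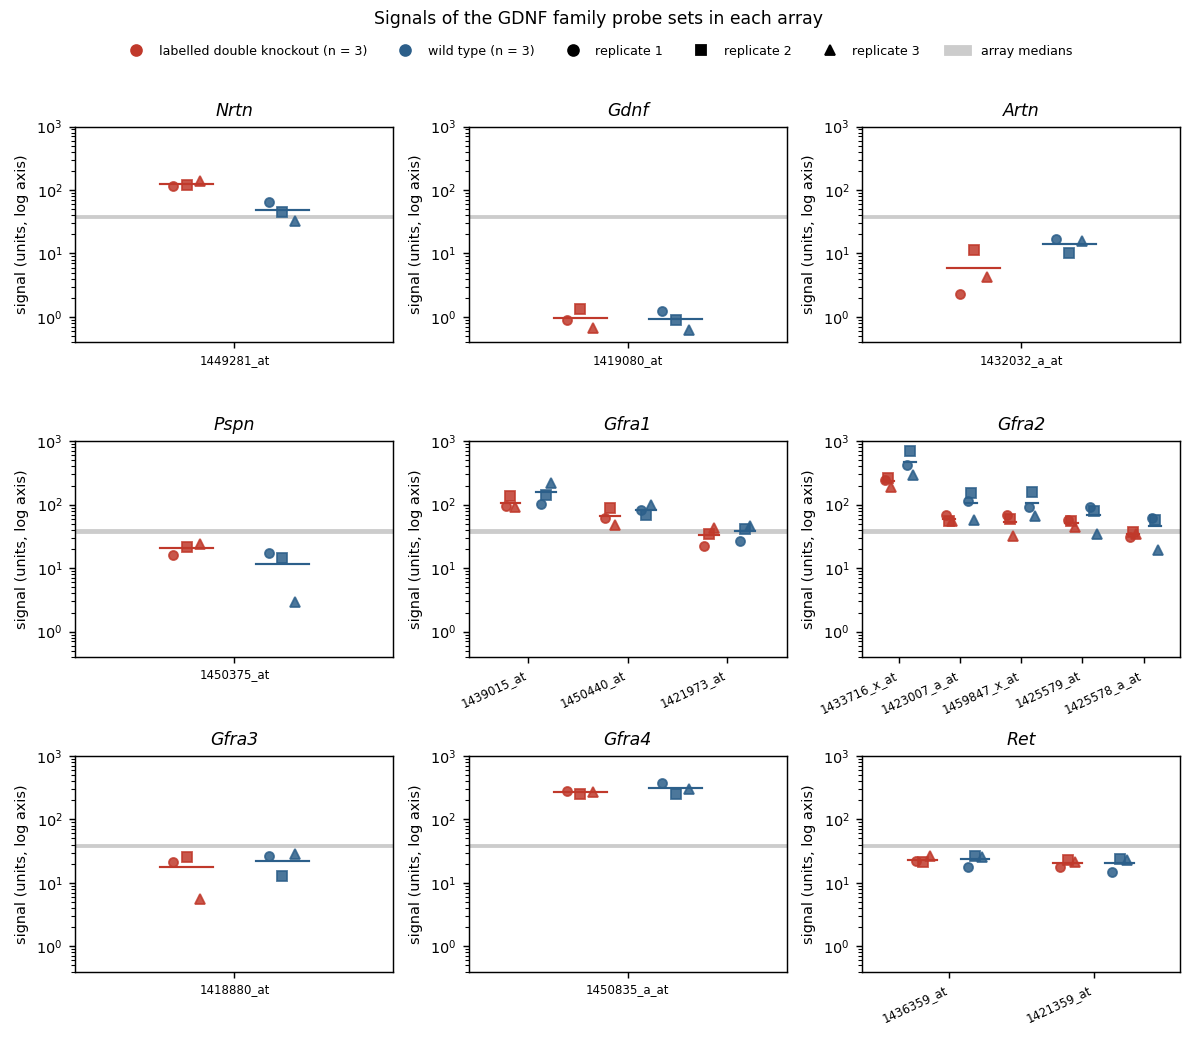
Signal of each of the 16 probe sets in each array, on a log axis in signal units, with arrays labelled double knockout in red on the left and wild type arrays in blue on the right of each pair, and short lines at group means (n = 3 each). Nrtn is the only ligand whose groups do not overlap, at 116 to 138 against 32.1 to 65.6, while Gdnf, Artn, Pspn, Gfra3 and Ret lie below the grey band of array medians in every array.

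Among the co-receptors, Gfra2, the preferred partner of neurturin, read lower in the arrays labelled double knockout on all 5 of its probe sets and the groups overlapped on 4 of them. The brightest, 1433716_x_at, read 249, 262 and 189 in the arrays labelled double knockout, against 424, 691 and 289 in wild type. These groups did not overlap, although 262 and 289 were close. The means were 233 ± 38.8 and 468 ± 205 (SD, n = 3 each), a log2 difference of -0.89 (SE 0.26). The pooled SD of its log2 signals within groups was 0.46, so the arrays alone would give a larger error. The suffix x marks probe sets whose probes may also match other transcripts.

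The probe set 1423007_a_at read 68.9, 54.6 and 55.5 in the arrays labelled double knockout, against 115, 150 and 56.7 in wild type (log2 difference -0.63, SE 0.27). Here wild type replicate 3 lay among the arrays labelled double knockout. The probe set 1459847_x_at read 68.6, 59.7 and 31.5, against 91.7, 158 and 67.5 (log2 difference -0.79, SE 0.29), with wild type replicate 3 just below double knockout replicate 1. The other two probe sets, 1425579_at and 1425578_a_at, share a source sequence and differed by -0.25 (SE 0.26) and -0.22 (SE 0.27). On both, wild type replicate 3 was the lowest of all 6 arrays, at 34.6 and 19.4, against 43.8 to 57.3 and 31.3 to 37.4 in the arrays labelled double knockout.

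Wild type replicate 3 thus had less Gfra2 signal than the other wild type arrays on all 5 probe sets, and it also had the highest choroid plexus signal. Its summed signal of excitatory neuron markers was the lowest of all arrays. Double knockout replicate 1, whose choroid plexus sum of 4866 was the next highest, had the highest signal of its group on 3 of the 5 Gfra2 probe sets. Without wild type replicate 3 the log2 differences were -1.18 on 1433716_x_at, -0.97 on 1423007_a_at, -1.03 on 1459847_x_at, -0.59 on 1425579_at and -0.58 on 1425578_a_at. Without wild type replicate 2, the brightest of the wild type arrays on 3 of the probe sets, the same differences were -0.57, -0.37, -0.49, -0.12 and -0.05. Without double knockout replicate 1 they were -0.94, -0.71, -0.95, -0.31 and -0.17. Without double knockout replicate 3 they were -0.75, -0.59, -0.54, -0.16 and -0.22. The size of the Gfra2 difference therefore rested on which arrays of both groups were kept.

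Gfra2 lies within 1 Mb of Egr3 in the RefSeq gene table, which was used only for names and for neighbours. Among the wild type arrays both Egr3 probe sets were highest in replicate 2 and lowest in replicate 3, and 3 of the 5 Gfra2 probe sets had the same order. The excitatory neuron markers Slc17a7, Tbr1, Neurod6, Emx1 and Cux2 had this order too, and Camk2a did not. The order was therefore not particular to Gfra2 and Egr3. Of 15 other tested genes within 1 Mb of Gfra2, 1 passed the test, against 1.22% of all 11053 tested genes. It was Lgi3, a secreted leucine-rich repeat protein of neurons. Lgi3 rose to 853 ± 105 in the arrays labelled double knockout, against 396 ± 57.7 in wild type (SD, n = 3 each; log2 difference 1.08, limma adjusted p = 0.00913). Of these 15 genes 6 had an unadjusted p under 0.05, against 17.5% of all tested genes, and 5 were lower, and their median log2 difference was 0.21. Targeted alleles can carry DNA of another strain around the deleted gene. The labels name no strain, and the part of flanking DNA in the Gfra2 values was not tested.

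**Figure D2:**
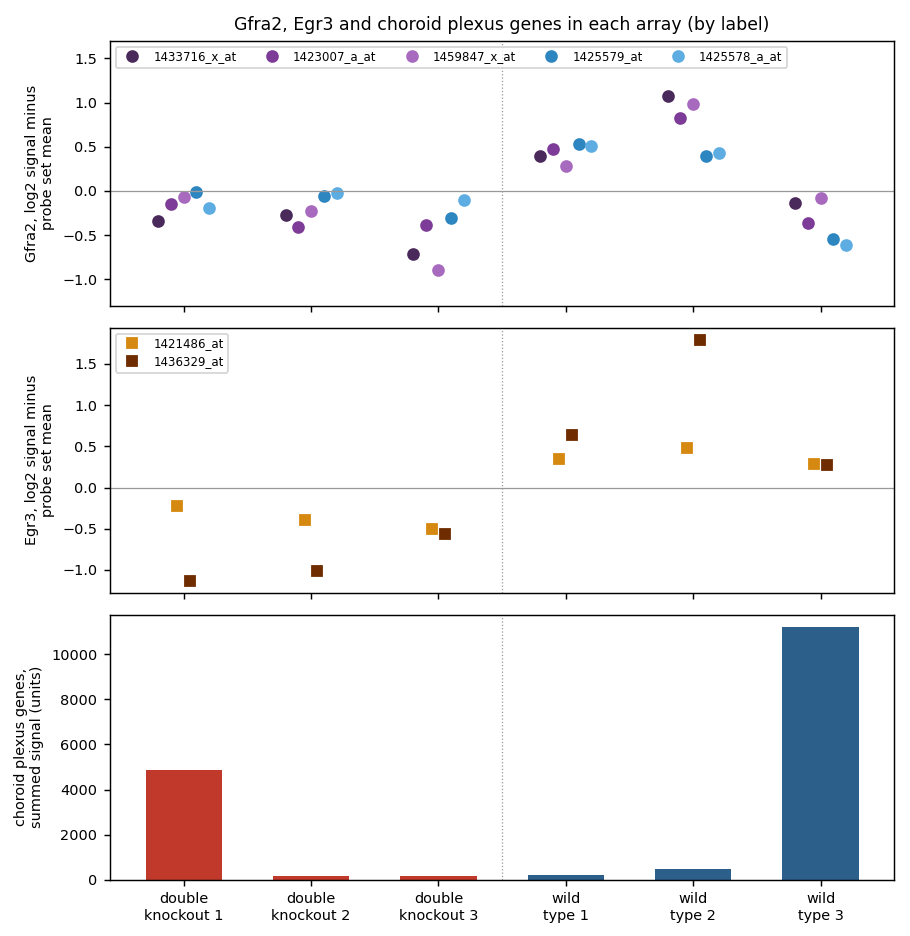
Log2 signal of the 5 Gfra2 probe sets (top) and 2 Egr3 probe sets (middle), each minus its own mean over the 6 arrays, and the summed signal of 6 choroid plexus genes in signal units (bottom), with arrays labelled double knockout on the left and wild type arrays on the right. Wild type replicates 1 and 2 lie above 0 on every Gfra2 probe set and wild type replicate 3 below 0, beside its choroid plexus sum of 11201.

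Gfra1, the preferred partner of GDNF, was lower on all 3 of its probe sets, each with overlapping groups. The brightest read 97.0, 135 and 91.1 in the arrays labelled double knockout, against 104, 143 and 221 in wild type (log2 difference -0.44, SE 0.24). The next, 1450440_at, read 62.4, 88.9 and 47.9, against 82.2, 68.4 and 99.8 (log2 difference -0.29, SE 0.21). The dimmest read 22.2, 34.7 and 43.1, against 27.1, 41.6 and 46.1 (log2 difference -0.14, SE 0.24). Wild type replicate 3 was the highest of all 6 arrays on each of them, opposite to its place for Gfra2. Without that array the log2 differences were -0.18, -0.17 and -0.04, from the brightest to the dimmest. With other single arrays left out they lay between -0.67 and -0.34, between -0.48 and -0.12, and between -0.30 and 0.03.

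Gfra4, the preferred partner of persephin, was the steadiest of the bright co-receptors. It read 283, 247 and 274 in the arrays labelled double knockout, against 376, 249 and 299 in wild type. The groups overlapped, with means of 268 ± 18.7 and 308 ± 63.7 (SD, n = 3 each) and a log2 difference of -0.17 (SE 0.15). Only wild type replicate 1 stood clear of the other 5 arrays, and without it the log2 difference was -0.03.

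Gfra3, the preferred partner of artemin, was below the array median in every array. It read 21.6, 25.4 and 5.53 in the arrays labelled double knockout, against 26.1, 12.7 and 28.3 in wild type (log2 difference -0.23, SE 0.30), and the groups overlapped. Gfra3 lies within 1 Mb of Egr1. Of 20 other tested genes within 1 Mb of Gfra3, 0 passed limma's adjusted threshold, against 1.22% of all tested genes, and 2 had an unadjusted p under 0.05, against 17.5%. Their median log2 difference was 0.05.

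Ret, the signalling receptor shared by the family, was dim and nearly level. Its probe set 1436359_at read 22.3, 21.2 and 26.1 in the arrays labelled double knockout, against 17.8, 26.8 and 25.9 in wild type (log2 difference -0.01, SE 0.18). The other, 1421359_at, read 17.9, 23.1 and 21.6, against 14.7, 24.0 and 23.0 (log2 difference 0.02, SE 0.18). Both had overlapping groups, and both lay below the array median in all 6 arrays. A signal this low limits what the array can show of Ret. The 6 markers of midbrain dopaminergic neurons, a cell type that makes Ret, had a summed signal of 137 to 194 in the arrays labelled double knockout, against 123 to 222 in wild type, and 1 of the 6 passed the signal filter.

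**Figure D3:**
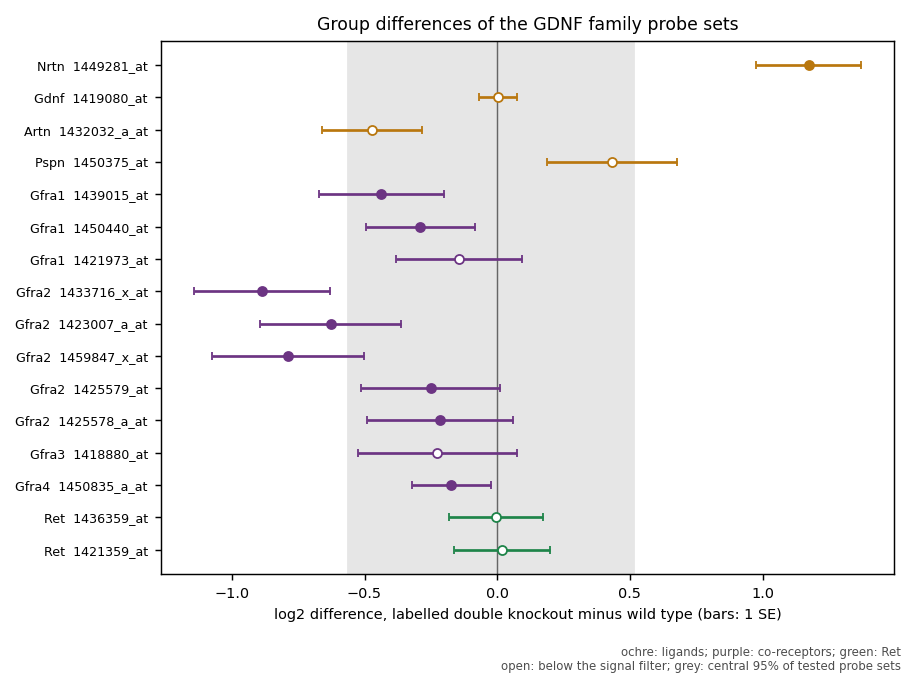
Log2 difference of each probe set, labelled double knockout minus wild type, with bars of 1 SE, filled where the probe set passed the signal filter and open where it did not (SE from the fit without the filter). The grey band holds the central 95% of all 22518 tested probe sets, from -0.56 to 0.52. Nrtn at 1.17 lies to its right and 3 Gfra2 probe sets at -0.89, -0.79 and -0.63 lie to its left.

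A filter on the mean signal over all arrays left 9 of the 16 probe sets, of 4 of the 9 genes, for the fit across all probe sets. These were the probe sets of Nrtn and Gfra4, both brighter ones of Gfra1 and all 5 of Gfra2. The third Gfra1 probe set stood just under the filter and the dimmest Gfra2 probe set just over it, with mean log2 signals of 5.67 and 5.76 around a bound of 5.72. That Gfra2 probe set passed through its wild type mean (5.87), since its mean in the arrays labelled double knockout (5.65) lay under the bound, whereas Nrtn was above the bound in both groups (7.13 and 5.96). Among the 9, limma called 1 at an adjusted p under 0.05, which was Nrtn, against 1.02% of all tested probe sets. The groups did not overlap for 2, Nrtn and 1 of Gfra2, against 22.3% of all tested probe sets. The median log2 difference of the 9 was -0.29, beside 0.01 over all tested probe sets. As Nrtn chose the family from this same contrast, nothing is read from these shares.

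Without double knockout replicate 1, 2 or 3 limma called 0 members, against 0.666%, 0.226% and 0.147% of all tested probe sets, while the Nrtn difference lay between 1.10 and 1.21. Without wild type replicate 3, limma called 2 member probe sets, Nrtn and 1433716_x_at of Gfra2, against 0.768% of all tested probe sets. With no signal filter 0 of 16 were called, against 0.0222% of all 45037 probe sets. These counts describe the fits, and nothing is read from them about Nrtn.

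Genes that act with or after Ret were examined next, with lists of 49 genes in 4 groups, of which 35 had a tested probe set and each was read on its brightest one. Limma called 0 of the 35, against 1.22% of all 11053 tested genes, and 6 had an unadjusted p under 0.05, against 17.5% of all tested genes. Of the 35, 15 were higher and 20 lower, with a median log2 difference of -0.02, beside 0.01 over all tested genes.

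Among 5 measured co-receptors and other receptors, 3 were higher and none passed. Ncam1, the adhesion molecule that serves as an alternative receptor for GDNF, read 1309 ± 174 in the arrays labelled double knockout, against 1076 ± 182 in wild type (log2 difference 0.28, SE 0.14, limma adjusted p = 0.348). Sorl1, a sorting receptor that binds GDNF with Gfra1, read 2010 ± 273, against 1761 ± 235 (log2 difference 0.19, limma adjusted p = 0.511). Both had overlapping groups, and their dimmer probe sets differed in sign, between -0.12 and 0.16 for Ncam1 and between -0.12 and 0.22 for Sorl1. Without wild type replicate 2 the log2 differences were 0.17 for Ncam1 and 0.09 for Sorl1.

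Of 15 measured adaptors and regulators of Ret, 6 were higher and 9 lower, and none passed. Src, a tyrosine kinase that acts with the co-receptors, read 132 ± 18.9 in the arrays labelled double knockout, against 204 ± 35.9 in wild type (log2 difference -0.57, SE 0.16, limma adjusted p = 0.128). Shc3, a neuronal adaptor, read 48.3 ± 8.87, against 81.6 ± 23.5 (log2 difference -0.58, SE 0.20, limma adjusted p = 0.192). The groups did not overlap for 4 of these 15 genes, Src and Shc3 among them, a share near the 23.3% of all tested genes.

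In the RAS-ERK and PI3K-AKT relay 4 of 9 measured genes were higher and 5 lower, and none passed. Pik3r1, a regulatory subunit of the lipid kinase PI3K, read 645 ± 89.9 in the arrays labelled double knockout, against 491 ± 70.4 in wild type (log2 difference 0.38, SE 0.14, limma adjusted p = 0.207). Braf, a kinase that activates the ERK pathway, read 829 ± 42.2, against 689 ± 38.4 (log2 difference 0.26, SE 0.10, limma adjusted p = 0.219). The other tested probe sets of both genes differed by less, between 0.09 and 0.33 for Pik3r1 and between -0.05 and 0.19 for Braf. Map2k2 differed in sign between its probe sets, at -0.24 on the brightest and 0.82 on the dimmer one, and neither passed.

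Of 6 measured feedback and ETS genes 2 were higher and 4 lower, and none passed. Spred1, which dampens RAS signalling, read 469 ± 58.8 in the arrays labelled double knockout, against 629 ± 168 in wild type (log2 difference -0.39, SE 0.17, limma adjusted p = 0.289). Etv5, an ETS factor that Ret induces in the developing kidney, read 418 ± 58.9, against 569 ± 206 (log2 difference -0.38, SE 0.22, limma adjusted p = 0.418). Both overlapped between the groups. The other Spred1 probe sets ranged from -0.40 to 0.26, and those of Etv5 differed by less, from -0.13 to -0.05. Without wild type replicate 2 the log2 difference was -0.18 for Spred1 and -0.12 for Etv5.

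**Figure D4:**
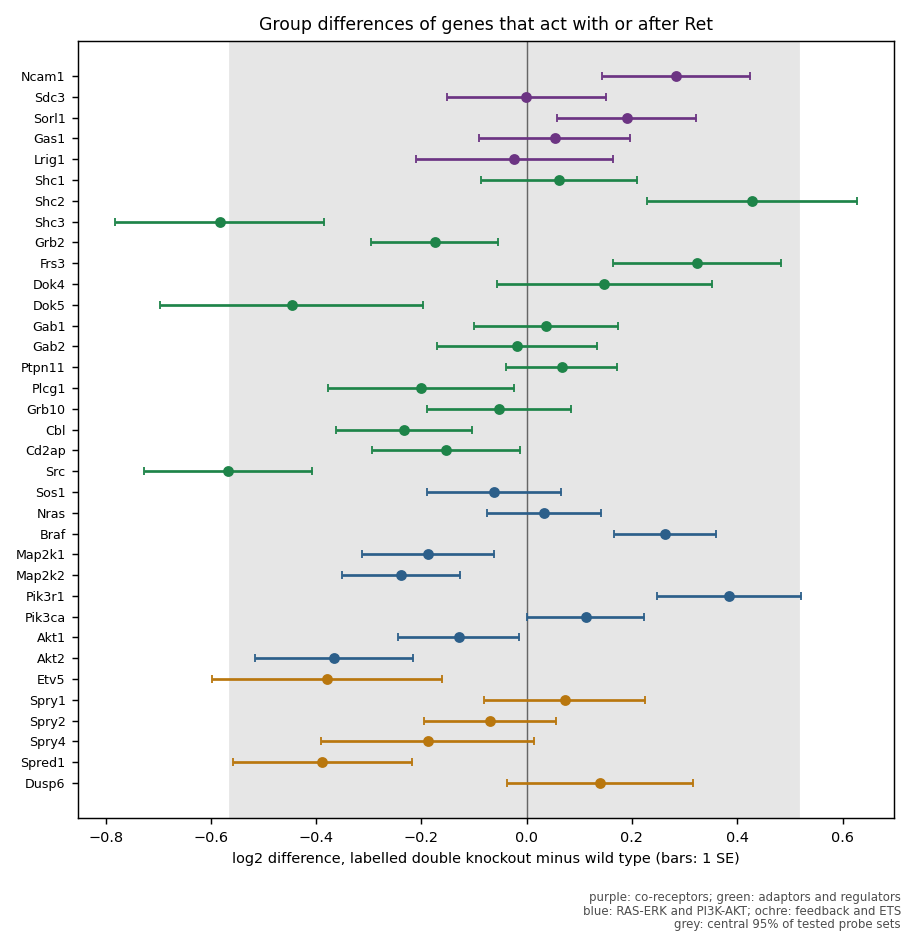
Log2 difference, labelled double knockout minus wild type, of the 35 measured genes that act with or after Ret, with bars of 1 SE and coloured by list. The grey band holds the central 95% of all 22518 tested probe sets. Shc3 at -0.58 and Src at -0.57 lie at or just past its lower edge of -0.56, and Shc2 at 0.43 and Pik3r1 at 0.38 are the highest. Each gene is shown on its brightest tested probe set only, and the dimmer Shc2 probe set differed by -0.11.

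The genes whose pattern over the 6 arrays was most like that of Nrtn were found by the smallest root mean square difference of log2 signals, each centred on its own mean. The nearest was Kcnab3, a potassium channel subunit, at 0.11. It read 119, 131 and 144 in the arrays labelled double knockout, against 57.4, 54.1 and 34.1 in wild type, and was lowest in wild type replicate 3, as Nrtn was. Lgi3 followed at 0.18, the transcribed pseudogene 6820431F20Rik at 0.20, Srp9, a subunit of the signal recognition particle, at 0.21, and Gna13, a G protein subunit, at 0.22. All 5 had groups that did not overlap, which the choice by likeness to Nrtn fixes in large part.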

How the data were processed

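The deposited values were probe set intensities on a linear scale, summarised and scaled by the authors, as the deposited table itself shows: its 2% trimmed means were 150.0 on every array. The software, its settings and any detection calls are not given in the sources used here. The groups came from the sample descriptions. Double knockout replicate 1 is titled in the same words as the wild type arrays. The 2 groups shared only replicate numbers, and deviations of same-numbered arrays correlated at -0.15, 0.0013 and -0.10, so the comparison was unpaired.

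Intensities under 1 were set to 1 and log2(signal + 16) was taken. Probe sets with a mean above the median of all probe sets went into a limma fit (version 3.58.1, R 4.3.3) with an intensity trend and Benjamini-Hochberg adjustment over all 22518, at a threshold of 0.05. Simulated arrays with known changes were used to check that fit. In them it recovered 9.6% of log2 changes of 0.5, 63.6% of changes of 1.0 and 84.0% of changes of 2.0. A gene that did not pass is therefore not shown to be unchanged. Exact permutation tests were left out, since with 3 arrays in each group their smallest two-sided p is 0.1. Standard errors of probe sets under the filter came from the fit without it.

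Names came from the platform annotation, updated by gene number in RefSeq, for the 34945 probe sets with 1 symbol. The rule for named genes took all probe sets of the family, Egr1 and Egr3, list genes past the threshold or else the 2 with the smallest p in each list, the 5 genes most like Nrtn, and changed neighbours of Gfra2 and Gfra3. The members and lists were chosen with earlier results of these data known. Promoter sequences are RefSeq's; Gfra2, Gfra3 and Ret had no entry. Of the 49 list genes, those without a tested probe set were not analysed here. Alternatives changed the added constant, the scaling, the filter, the variance prior, the array weights, the pairing and the arrays kept.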

Additional observations from a re-analysis of the deposited data

How the results depend on the processing

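Over 17 alternatives the Nrtn difference ranged from 0.76 with a constant of 64 to 1.42 with a constant of 1. With 1 array left out it ranged from 0.99 to 1.37. Its sign was no test, since changes of the filter, the variance prior and the pairing leave the difference itself unchanged. The groups also did not overlap, so leaving arrays out or changing the constant could not turn the sign. The number of member probe sets called, 1 with all arrays, was 0 with no filter, 0 with the stricter filter (which removed Nrtn), 0 without wild type replicate 1 and double knockout replicate 2 together, and 0 to 2 with 1 array left out. With the replicate number as a replicate block it was 2, Nrtn and a Gfra2 probe set, but the numbers do not pair the arrays. Over all probe sets, the count of 229 became 10 with no filter, 131 with no intensity trend, 9 without those 2 arrays together and 33 to 300 with 1 array left out. No pathway gene was called in any of 18 alternatives. The 5 Gfra2 differences kept their sign in all 17, which was fixed in advance for changes of the filter, the variance prior and the pairing. On 1433716_x_at, whose groups did not overlap, leaving arrays out or changing the constant could not turn the sign either. The signs of the single probe sets of Gdnf, Gfra3 and Gfra4, of the dimmest Gfra1 probe set and of both Ret probe sets did not hold throughout. Lgi3 lost its call with no filter (adjusted p = 0.0818) and without the same 2 arrays (0.0958), in a range of 0.00446 to 0.0958. The brighter Egr3 probe set lost its call in 8 of the 17 alternatives, among them no filter, no intensity trend and a robust trend. Its limma adjusted p was 0.00834 to 0.251 over the 17. The cause of these shifts was not tested. Probe sets near or below the array median, among them all of Gdnf, Artn, Pspn, Gfra3 and Ret, give little measure of a difference.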
